A study of Rattus norvegicus with 16 samples.

Results

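Glomeruli of rats given puromycin aminonucleoside (PAN), a podocyte toxin, were compared with glomeruli of healthy control rats across all genes of the deposited table. The members were chosen by the group label alone: the 4 rats labelled PAN and the 4 labelled Ctl, 8 of the 16 rats in the series. The control rats carry the treatment label Healthy and the PAN rats the label Injury_Model_A. Both groups were male Wistar rats of about 175 g, PAN went into a vein, daily gavage delivered drug or sham vehicle, and the kidneys were taken on day 11 for isolation of glomeruli by sieving. The labels used here give no PAN dose and do not say what the controls were injected or gavaged with. The other 8 rats received PAN with pioglitazone or with GQ-16, 4 of each, and enter here only through the estimate of the spread between rats. Each library is poly(A) RNA from the glomeruli of one labelled sample. Nothing in the labels says that the samples are separate animals beyond their separate entries, so the p-values measure the spread between these samples.

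The glomerulus is the filter of the kidney. Podocytes cover its capillaries with interlocking foot processes joined by slit diaphragms, fenestrated endothelial cells line them, contractile mesangial cells hold the loops together and parietal epithelial cells line the surrounding capsule. PAN strips the foot processes of podocytes and is used in rats to produce heavy proteinuria that resembles minimal change disease or, with repeated or late injury, focal sclerosis. Sieved glomeruli also carry tubule fragments, and in such bulk RNA a loss of cells of a type and a loss of RNA per cell cannot be told apart.

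The 8 libraries held between 15169168 and 19960643 reads in the 13222 analysed genes. Reads from 21 mitochondrial genes took 13.93% to 39.59% of the control libraries and 5.982% to 10.79% of the PAN libraries. The difference of means was -17.1 percentage points (26.3% ± 11.8 in control, 9.24% ± 2.20 in PAN, SD, n = 4 each, two-sided exact permutation p = 0.0286, the smallest that 70 assignments allow, 0.0429 adjusted over 3 library measures). Because a CPM value is a share of all reads, each library was multiplied by one factor that gives all libraries the same median gene. CPM (reads scaled to a common library total) below means these median-centred values, and a list's level in a rat means the average of log2(CPM + 1) over its members. The median log2 change over all genes was -0.02 on this scale and 0.28 on the deposited scale, so the deposited values place most genes higher in PAN. Of the 4 PAN libraries 3 carry numbers of 25 or above in their titles and the 4 controls carry none. What these numbers record is not given, and PAN rat 4 is the one PAN rat whose number, 6, is next to those of the controls, 7 to 10.

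PAN glomeruli differed from control glomeruli in 1086 of 13222 genes (8.21%) by limma at an adjusted p under 0.05. Of these 840 (6.35%) were higher and 246 (1.86%) were lower in PAN. On the deposited CPM scale the same test called 2874 higher and 69 lower. The called rises had a median of 0.95 on the log2 scale (interquartile range 0.64 to 1.35) and 383 of them reached 2-fold, 62 of them 4-fold. The called falls had a median size of 0.58 (interquartile range 0.39 to 0.90), 49 reached 2-fold and 1 reached 4-fold. Without regard to the test, the 4 PAN rats lay entirely above or entirely below the 4 controls in 2066 genes (15.6%), 1257 above (9.51%) and 809 below (6.12%). Among the 840 called rises 780 had no overlap between the rats, and among the 246 called falls 215 had none.

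The composition of these changes was read from 42 lists of cell type markers, pathways and complexes. They hold 174 of the 840 called rises and 28 of the 246 called falls, so most called genes belong to no list. The rises gathered in contractile and sarcomeric genes, cell cycle genes, extracellular matrix genes and the cytoskeleton. The falls gathered in genes of the distal nephron and collecting duct. No member was called in either direction in the lists of endoplasmic reticulum stress (26 members), heat shock (16), interferon and antigen presentation (34), proteasome (36), cytosolic ribosomal proteins (70) or nuclear respiratory chain subunits (80). Without PAN rat 4 the test called 11 nuclear respiratory chain genes lower, and on the deposited scale it called 38 ribosomal protein and 22 proteasome genes higher.

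Counts of list members on the median-centred scale with all rats are read against the 6.35% of all genes called higher and the 1.86% called lower, and counts under another setting against the shares of all genes under that setting. On the deposited scale 21.7% of all genes were higher and 0.522% lower. With library number as a covariate these shares were 2.33% and 0.34%, with the tubule level 0.787% and 0.151%, and with the podocyte level 3.96% and 0.779%. They were 8.46% and 3.21% without control rat 1, 3.47% and 0.34% without control rat 2, 3.19% and 0.303% without control rat 3, and 4.7% and 1.28% without control rat 4. They were 3.65% and 0.446% without PAN rat 1, 3.52% and 0.62% without PAN rat 2, 5.23% and 1.25% without PAN rat 3, and 8.03% and 5.92% without PAN rat 4.

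**Figure D1:**
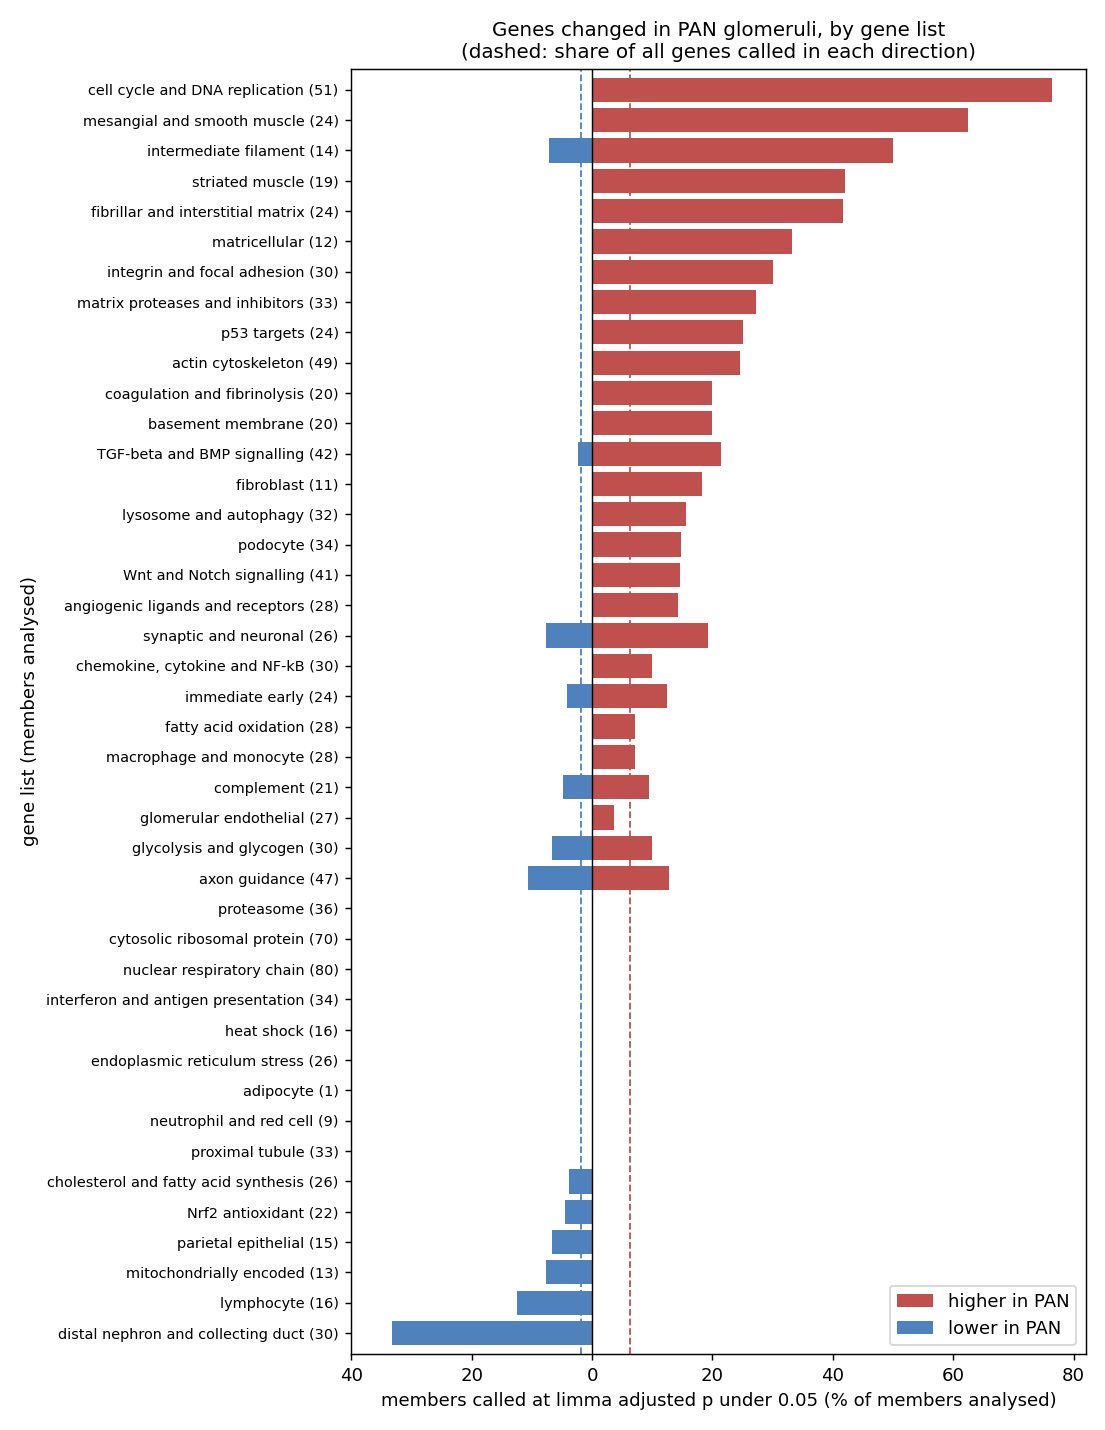
Each bar gives, for one gene list, the percentage of its analysed members (number in brackets) called higher (right) or lower (left) in PAN by limma at an adjusted p under 0.05, and the dashed lines mark the 6.35% and 1.86% of all genes. Cell cycle and mesangial or smooth muscle lists extend farthest to the right, and the distal nephron list extends farthest to the left.

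The 3 largest rises among called genes with a symbol, 5 CPM or more on average and no overlap were in genes of the striated muscle list, Synpo2l, Pygm and Myom2. Synpo2l, a Z-disc protein related to synaptopodin, stood at 1.99, 1.27, 0.824 and 1.16 CPM in control rats 1 to 4 and at 81.1, 140, 154 and 137 CPM in PAN rats 1 to 4. The lowest PAN rat was far above the highest control, and the log2 change was 5.78 ± 0.59 (SE, limma adjusted p = 0.000251). Pygm, the muscle form of glycogen phosphorylase, stood at 7.21, 5.86, 4.12 and 5.91 CPM in control and at 143, 229, 128 and 177 CPM in PAN. The groups did not overlap, and the log2 change was 4.64 ± 0.44 (SE, limma adjusted p = 0.00014). Ldb3, a Z-disc scaffold, rose from 2.42, 2.29, 1.61 and 1.72 CPM to 41.4, 24.6, 16.5 and 30.2 CPM, a log2 change of 3.21 ± 0.27 (limma adjusted p = 9.87e-05). Myom2, an M-band protein, and Myoz1, a calcineurin-binding Z-disc protein, also rose, with log2 changes of 4.60 and 2.93 and limma adjusted p-values of 0.00216 and 0.00285.

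The striated muscle list fixed 71 genes, of which 19 are analysed here. Of these 8 rose and none fell, 42.1% against 6.35% of all genes, and the median log2 change was 0.62 against -0.02. Genes low in control, such as Synpo2l, may have passed the authors' minimum level through rats given PAN, which can raise this share and was not tested. With library number, the tubule level or the podocyte level as a covariate the median was 0.20, 0.38 or 0.18. In the reported fit 7 of the 19 had a log2 change under 0. The other 3 that rose were Cryab, a small heat shock protein of the Z-disc, Ryr1, the calcium release channel of skeletal muscle, and Eno3, the muscle enolase. Of the 10 markers fixed as defining skeletal muscle, Casq1, a calcium store protein, is analysed here, at 2.98 to 4.82 CPM in control and 3.26 to 4.68 CPM in PAN. Those 2 ranges overlap, and the other 9 are not analysed here. The list's level was 3.81, 3.20, 3.10 and 3.52 in control rats and 4.84, 4.91, 4.73 and 4.75 in PAN rats, so the PAN rats lay close together and above every control. Of called genes outside that list, Dusp27, a catalytically inactive muscle phosphatase, went from 0.171 to 0.521 CPM in control to 7.49 to 17.1 CPM in PAN. Control rat 2, at 0.171 CPM, was below its level of 3 reads (0.205 CPM), so these control values rest on few reads. Colq, the collagen tail that anchors acetylcholinesterase, went from 0.431 to 1.26 CPM to 7.92 to 14.9 CPM. Cpt1b, the muscle form of the carnitine palmitoyltransferase that admits fatty acids to mitochondria, rose by 2.00 (limma adjusted p = 0.000384).

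Most smooth muscle and mesangial genes rose. Of 24 analysed members 15 rose and none fell (62.5% against 6.35% of all genes), the median log2 change was 0.84, and every one of the 24 log2 changes was above 0, as were 46.3% of those of all genes. Tagln, an actin-binding protein of smooth muscle, stood at 25.5, 12.6, 8.90 and 12.1 CPM in control and at 329, 87.5, 61.1 and 80.1 CPM in PAN (log2 change 2.90 ± 0.42, limma adjusted p = 0.00178). PAN rat 1 was the highest by a wide margin, and the lowest PAN rat was still above the highest control. Acta2, smooth muscle actin, rose by 2.42 and Myl9, the smooth muscle myosin light chain, by 1.59 (limma adjusted p = 0.00178 and 0.00122). The mesangial receptors and adhesion molecules rose less: Pdgfrb, the platelet-derived growth factor receptor of mesangial cells, by 1.29, Thy1 by 1.23, the mesangial integrin Itga8 by 0.89 and the transcription factor Gata3 by 0.76. Myh11, the smooth muscle myosin heavy chain, had values of 9.14 to 16.9 CPM in control and 14.9 to 65.2 CPM in PAN. These ranges overlapped and the gene was not called (limma adjusted p = 0.116).

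Some intermediate filament and actin genes were also higher. Desmin (Des), the muscle intermediate filament that injured podocytes are known to express, stood at 143, 66.3, 46.6 and 110 CPM in control and at 825, 687, 508 and 599 CPM in PAN. Every PAN rat was above every control, and the log2 change was 2.93 ± 0.34 (limma adjusted p = 0.000384). Of 14 analysed intermediate filament genes 7 rose, 8 had a log2 change above 0 and the median was 0.21. Among the rises were Nes, nestin, by 1.99 and Vim, vimentin, by 1.35, while Krt7, a keratin of collecting duct and parietal cells, fell by 0.66 (limma adjusted p = 0.0351, groups overlapping). Of 49 analysed actin cytoskeleton genes 12 rose and none fell (24.5%), and 42 had a log2 change above 0. The rises numbered 35 on the deposited scale, 5 with library number as a covariate and 2 with the tubule level. Tpm2, a muscle tropomyosin, rose by 1.94, Actn1, an actinin that crosslinks actin, by 1.31 and Pdlim1, an adaptor of actinin, by 1.20. Of 30 integrin and focal adhesion genes 9 rose, including Itgb5 by 1.44, the collagen receptor Ddr2 by 1.40 and the laminin receptors Itga3 by 1.08 and Itga7 by 0.83. Itgb5 and Itga3 overlapped between the groups, and the number of called integrin and focal adhesion genes ran from 1 without control rat 3 to 11 without control rat 1.

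Genes of the cell cycle and DNA replication gave the largest share of called members of any list. Of 51 analysed members 39 rose and none fell (76.5% against 6.35% of all genes), 45 lay without overlap above the controls against 9.51% of all genes, and the median log2 change was 1.22. Cdk1, the kinase that drives entry into mitosis, stood at 3.53, 2.64, 2.31 and 3.53 CPM in control and at 14.6, 22.7, 11.5 and 16 CPM in PAN (log2 change 2.08 ± 0.37, limma adjusted p = 0.00446). PAN rat 2 was the highest and PAN rat 3 the lowest, and no PAN rat overlapped the controls. Top2a, the topoisomerase that untangles replicated chromosomes, stood at 7.02, 9.14, 10.6 and 7.88 CPM in control and 43.5, 56.0, 32.3 and 40.2 CPM in PAN. Here too the groups did not overlap (log2 change 2.17 ± 0.46, limma adjusted p = 0.0103). The kinetochore gene Cenpf rose by 2.07, the midzone protein Prc1 by 2.05 and the proliferation marker Mki67 by 2.02. The rise took in replication factors as well, with 0.87 to 1.34 for the helicase subunits Mcm3, Mcm4 and Mcm5 and 1.11 for the licensing factor Cdc6. The list's level was 2.93 to 3.16 in control rats and 3.99 to 4.48 in PAN rats.

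Beside the cell cycle genes, p53 target genes that halt the cycle or respond to DNA damage rose. Cdkn1a, the cyclin-dependent kinase inhibitor p21, stood at 10.2, 12.1, 15.8 and 15.7 CPM in control and at 42.0, 63.1, 35.7 and 37.3 CPM in PAN. The 4 PAN rats were each above every control, and the log2 change was 1.64 ± 0.18 (limma adjusted p = 0.000297). Phlda3, an inhibitor of Akt signalling, rose by 1.74, Gadd45a, a stress sensor, by 1.17, the nuclease gene Aen by 0.65 and the kinase gene Plk3 by 0.58. In all 6 of 24 analysed p53 targets rose and none fell (25%), and the list's median was 0.06, so the rise was in these members rather than across the list. On the deposited scale 12 rose, with library number as a covariate 5 rose and 1 fell, and with the tubule level 3 rose and 1 fell.

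Promoters of 3 genes with large rises are shown as examples of promoters that hold a short known motif. They come from RefSeq on the GRCr8 build, run from 250 bases before to 50 bases after the start of the gene, and capitals mark the motif matches. In Cdk1 (chr20:19265043-19265342, plus strand) the capitals mark an E2F motif, the site of factors that switch on replication genes. In Ldb3 (chr16:9924630-9924929, minus strand) they mark an AP-1 motif and then a CArG box, the site of serum response factor in muscle genes. In Scg2, which encodes the granule protein secretogranin II (chr9:88256817-88257116, minus strand), they mark a cyclic AMP response element.
Cdk1: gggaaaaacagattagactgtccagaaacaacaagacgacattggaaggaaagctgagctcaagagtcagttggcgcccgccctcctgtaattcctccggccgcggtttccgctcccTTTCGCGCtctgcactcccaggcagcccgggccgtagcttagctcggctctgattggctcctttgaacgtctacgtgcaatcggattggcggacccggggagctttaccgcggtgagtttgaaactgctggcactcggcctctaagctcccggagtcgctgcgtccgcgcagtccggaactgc
Ldb3: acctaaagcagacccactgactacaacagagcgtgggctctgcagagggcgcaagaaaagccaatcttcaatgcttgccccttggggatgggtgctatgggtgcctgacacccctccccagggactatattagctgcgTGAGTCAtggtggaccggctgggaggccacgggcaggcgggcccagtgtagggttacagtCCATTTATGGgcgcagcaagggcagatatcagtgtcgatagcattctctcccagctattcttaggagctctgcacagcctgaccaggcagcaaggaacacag
Scg2: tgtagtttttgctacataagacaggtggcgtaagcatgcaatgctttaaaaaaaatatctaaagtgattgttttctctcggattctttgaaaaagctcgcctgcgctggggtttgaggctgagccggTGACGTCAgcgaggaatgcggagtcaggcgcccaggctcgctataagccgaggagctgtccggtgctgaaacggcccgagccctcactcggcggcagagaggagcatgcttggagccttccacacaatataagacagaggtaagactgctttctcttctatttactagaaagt
The E2F search used the letters TTTGGCGC and TTTCGCGC on both strands and found a match in 143 of 9596 matched promoters (1.49%). A match was present in 9 of 39 promoters of the cell cycle list (23.1%), in 18 of 619 promoters of called rises (2.91%) and in 3 of 169 of called falls (1.78%). The AP-1 search (TGANTCA) matched 4.86% of all promoters and 5.82% of called rises, the CArG box 1.25% and 1.29%, and the cyclic AMP response element (TGACGTCA) 3.01% and 3.07%. Among 26 promoters of called rises from the muscle and actin lists, a CArG box was found in 1 (3.85%) and an AP-1 match in 2 (7.69%). The letters searched for one motif contain none of another. In Cdk1 the E2F match lies at bases -133 to -126 from the start, in Ldb3 the AP-1 and CArG matches lie at -112 to -106 and -52 to -43, and in Scg2 the element lies at -123 to -116. A match describes these letters and shows no binding.

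**Figure D2:**
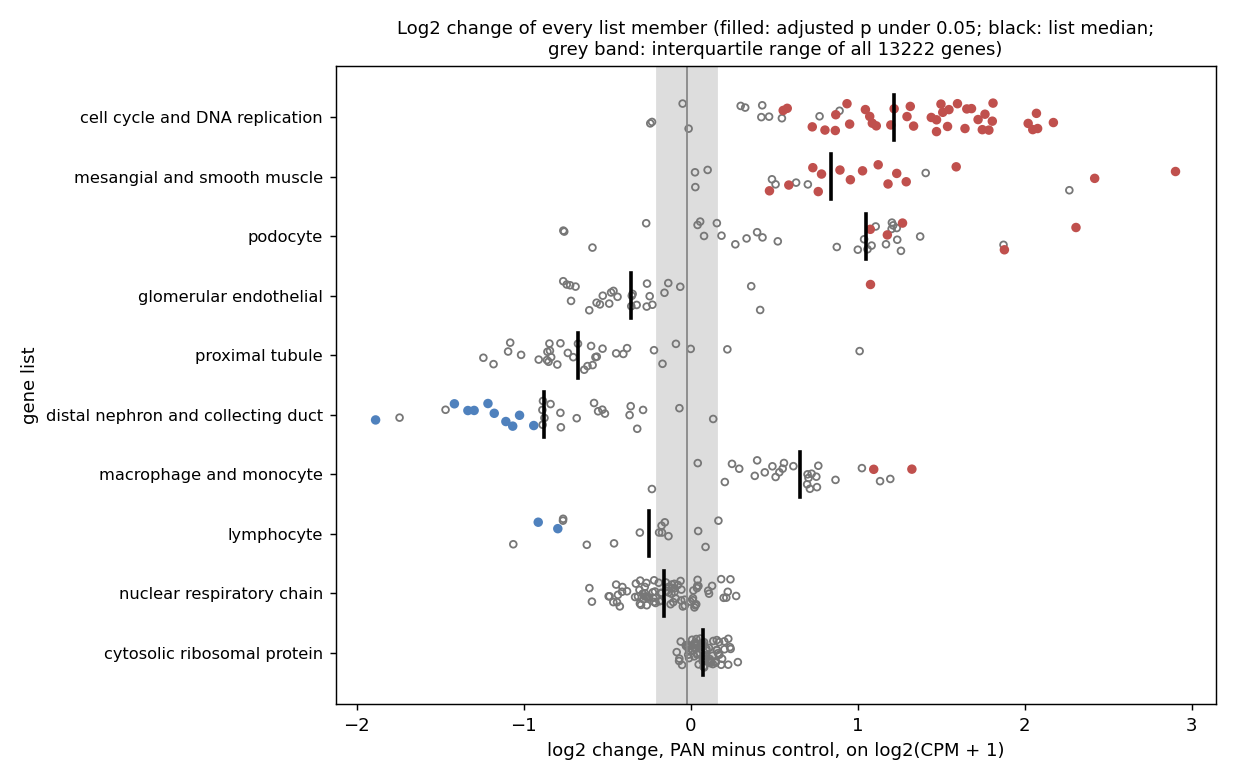
Each point is one list member, placed at its log2 change (PAN minus control), filled where limma called it, with a black line at the list median and a grey band over the interquartile range of all genes. Cell cycle and mesangial members lie to the right, distal nephron members lie to the left, and the ribosomal protein members stay within or near the grey band.

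Podocyte genes were mostly higher in PAN on this scale, and the control rats differed widely among themselves. Trpc6, a cation channel of the foot process, stood at 2.98, 2.43, 2.39 and 2.40 CPM in control and at 9.03, 8.02, 4.88 and 6.76 CPM in PAN. Every PAN rat was above every control, and the log2 change was 1.18 ± 0.20 (limma adjusted p = 0.00327). Podocyte genes that also rose included Hs3st6, a heparan sulfate sulfotransferase, by 1.88, Ddn, dendrin, by 1.27 and the actin regulator Inf2 by 1.08. Wt1, a transcription factor of podocytes, stood at 219, 54.5, 52.3 and 83.7 CPM in control and at 190, 229, 221 and 159 CPM in PAN. Control rat 1 lay within the PAN range, and neither Wt1 nor Synpo, which encodes the foot process protein synaptopodin, was called (limma adjusted p = 0.0952 and 0.167).

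Over the 34 podocyte genes 30 had a log2 change above 0 and the median was 1.05, while 5 rose by the test and none fell. The list's level was 7.62, 6.09, 5.96 and 6.57 in control rats and 7.48, 7.33, 7.29 and 7.17 in PAN rats. Control rats 2 and 3, which had the lowest podocyte levels, were also the libraries with the largest mitochondrial share of reads, at 39.59% and 32.57%. Without control rat 1 the test called 18 podocyte genes higher and 1 lower, and without control rat 2 or 3 it called 2 higher. With library number as a covariate 1 podocyte gene was called higher and the median log2 change was 0.39. With the tubule level none was called and the median was 0.47. Without control rats 2 and 3 together none was called and the median was 0.26. The part of this spread between control libraries in the comparison was not tested beyond these values.

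Endothelial genes went the other way in level with few calls. Kdr, the receptor for vascular endothelial growth factor, stood at 1510, 2840, 2710 and 2400 CPM in control and at 1500, 1560, 2090 and 1060 CPM in PAN. Control rat 1 lay among the PAN rats, so the groups overlapped and Kdr was not called (log2 change -0.61 ± 0.28, limma adjusted p = 0.176). Of 27 analysed endothelial genes 24 had a log2 change under 0 with a median of -0.36, or -0.05 on the deposited scale, and none fell by the test. Without control rat 1 the test called 4 endothelial genes lower. The defining markers Cdh5, Emcn and Ehd3 had log2 changes of -0.36, -0.56 and -0.23 and were not called (limma adjusted p = 0.34, 0.139 and 0.538). Plvap, the diaphragm protein of fenestrated and immature capillaries, was the 1 endothelial gene called. It stood at 90.9, 84.1, 80.6 and 107 CPM in control and 226, 216, 150 and 179 CPM in PAN, a log2 change of 1.07 ± 0.15 (limma adjusted p = 0.00166), with no overlap. Among 28 angiogenic ligands and receptors 4 rose, including Vegfd, a vascular growth factor, by 2.08 and Angpt2, the antagonist ligand of Tie2, by 1.05.

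Part of the interstitial matrix list rose, and PAN rat 1 had the highest level of this list. Col1a1, the main chain of type I collagen, stood at 54.1, 10.3, 15.9 and 33.6 CPM in control and at 1540, 243, 185 and 81 CPM in PAN. The lowest PAN rat was above the highest control and PAN rat 1 was several times the other PAN rats. The log2 change was 3.49 ± 0.74 (limma adjusted p = 0.0105), and the call was kept with each of the 8 rats left out. It was lost with library number (limma adjusted p = 0.144), the tubule level (0.236) or the podocyte level (0.0516) as a covariate and without control rats 2 and 3 together (0.235). Of 24 analysed fibrillar and interstitial matrix genes 10 rose and none fell (41.7%), with a median of 1.24. Among them were the collagens Col8a1 (by 2.47) and Col5a1 (by 1.53), the collagen crosslinking enzymes Loxl2 (by 2.14) and Loxl1 (by 1.45) and the microfibril gene Fbn1 (by 1.60). The list's level was 4.07 to 4.53 in control rats and 6.95, 5.52, 4.97 and 4.83 in PAN rats. Without PAN rat 1 the list again had 10 called rises. PAN rat 1 also had the highest macrophage level and the lowest proximal tubule level of the 4 PAN rats, and the part of these in its matrix values was not tested. The 3 analysed defining fibroblast markers, among them Col1a1, summed to 25.6 to 70.4 CPM in control and 99.3 to 1630 CPM in PAN. Of the other 2, Dpt ran from 1.87 to 3.53 CPM in control and 3.27 to 60.0 CPM in PAN, and Pdgfra from 11.8 to 16.4 CPM and 7.54 to 23.5 CPM. Both overlapped and neither was called (limma adjusted p = 0.14 and 0.806).

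Genes of matricellular proteins and of enzymes that process matrix were also among the rises. Adamts12, a secreted metalloprotease, stood at 4.82, 4.14, 1.61 and 2.23 CPM in control and at 23.6, 21.9, 14.4 and 18.9 CPM in PAN (log2 change 2.35 ± 0.28, limma adjusted p = 0.000474), without overlap. Of 33 proteases and inhibitors 9 rose and none fell (27.3%), among them also the metalloprotease Adam12 (by 2.06) and the inhibitors Timp2 (by 1.64) and Serpine2 (by 1.36). There were 16 on the deposited scale, 5 with library number as a covariate and 1 with the tubule level. Adamts14, a procollagen processing protease outside the list, went from 1.81 to 2.63 CPM in control to 23.9 to 51.7 CPM in PAN. Of 12 matricellular genes 4 rose, namely Ccn2 by 2.07, Mgp by 1.48, Ccn1 by 1.24 and Thbs1 by 1.14. Their number ran from 3 to 7 with 1 rat left out (most without control rat 1), and was 8 on the deposited scale and 0 with library number or the tubule level as a covariate. Of 20 basement membrane genes 4 rose, namely Smoc2 by 1.71, Nid1 by 1.36, Tinagl1 by 1.13 and Col4a1, a chain of the collagen IV network, by 0.75. Col4a1 kept its call in 1 of 8 fits with 1 rat left out and lost it with library number or the tubule level as a covariate (limma adjusted p = 0.128 and 0.292). On the deposited scale 8 basement membrane genes rose, and with the tubule level none did.

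**Figure D3:**
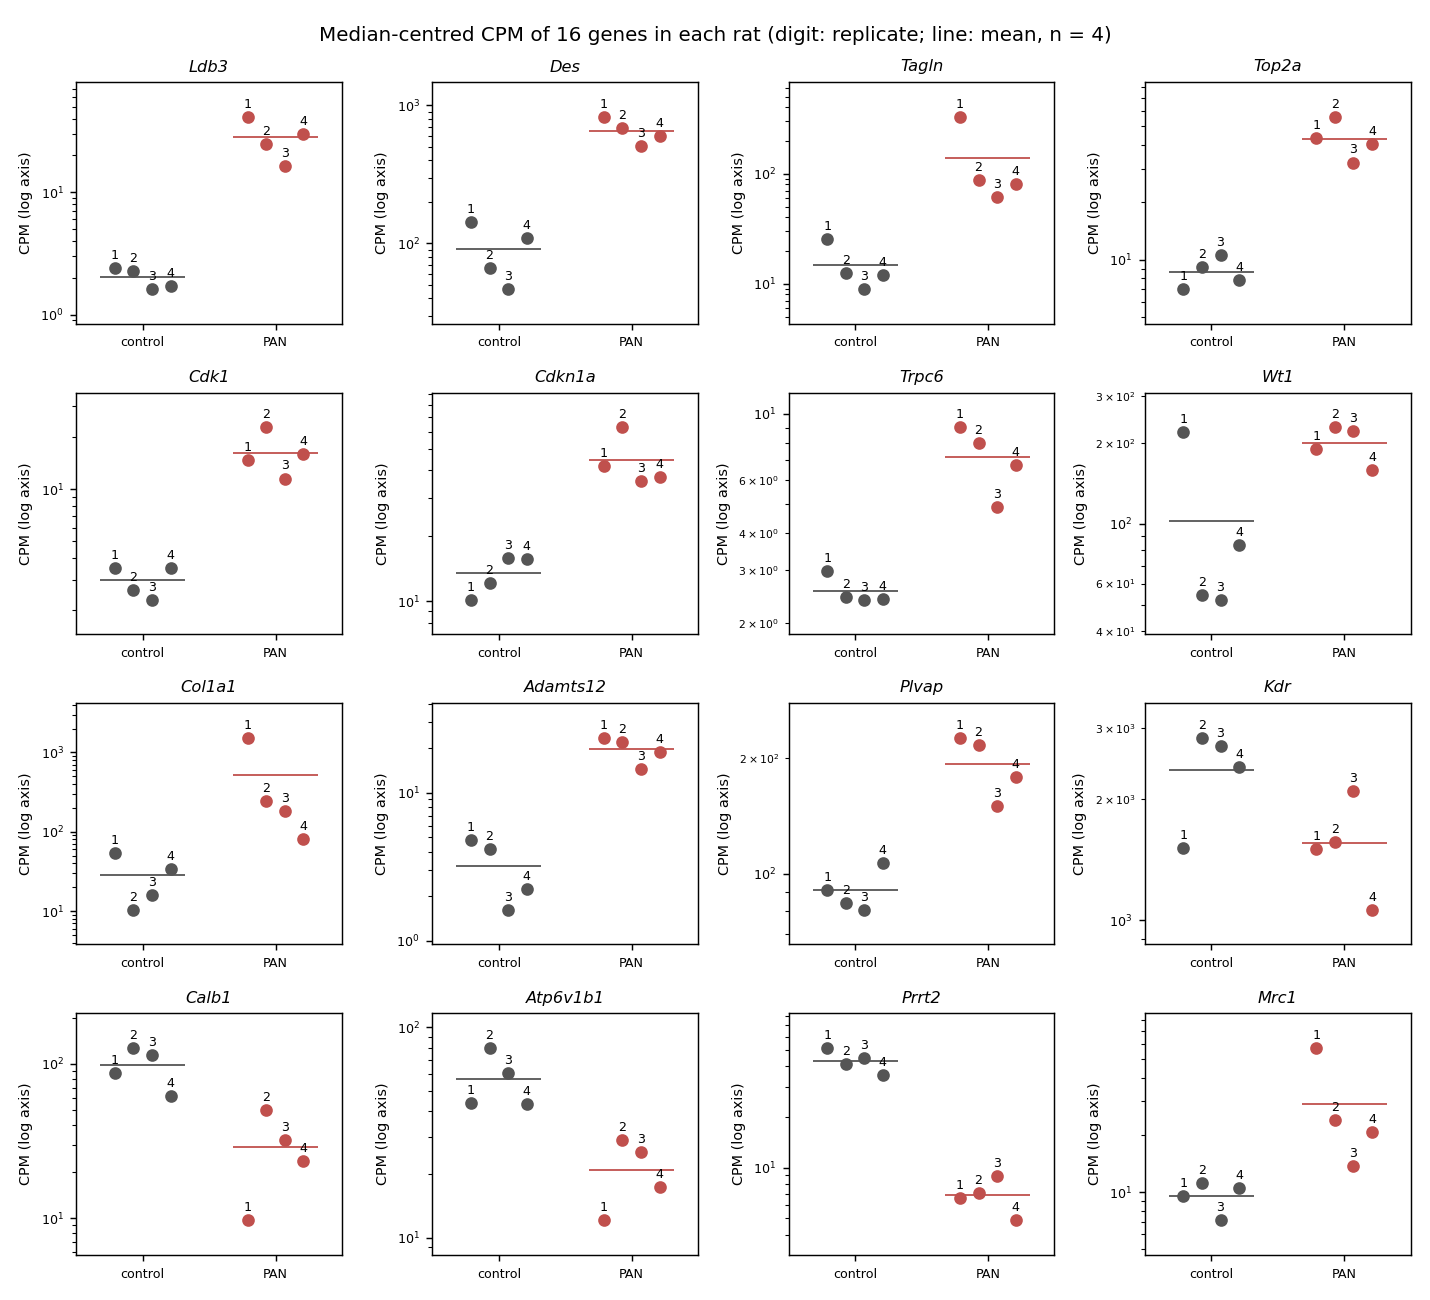
Points give the median-centred CPM of 16 genes in each control (grey) and PAN (red) rat on a log axis, digits name the replicate and lines give the group mean (n = 4). The muscle, cell cycle and Cdkn1a panels show no overlap between the groups, while Wt1 and Kdr show control rat 1 among the PAN rats.

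Several genes of the TGF-beta family rose. Tgfb3, a ligand, stood at 11.6, 5.72, 4.51 and 6.41 CPM in control and 33.9, 30.8, 26.6 and 22.2 CPM in PAN, a log2 change of 1.92 ± 0.26 (limma adjusted p = 0.00121). Every PAN rat was above every control. The decoy receptor gene Bambi rose by 1.42 and the secreted modulator Fstl1 by 1.17, while the receptor Tgfbr2 fell by 0.84 (limma adjusted p = 0.0337, groups overlapping), a call lost in 6 of 8 fits with 1 rat left out and on the deposited scale (limma adjusted p = 0.0674). Of 42 members 9 rose (21.4%) and 1 fell (2.38%, near the 1.86% of all genes), and the list's median was 0.00. Without control rat 2 or 3 the rises in this list numbered 2. Of 41 Wnt and Notch genes 6 rose, including the Wnt receptor Ror2 by 1.31, the secreted Wnt modulator Sfrp2 by 1.18 and Notch3, a receptor of mural cells, by 0.96. This list had 3 rises without control rat 3, PAN rat 1 or PAN rat 2, up to 8 without PAN rat 4, 12 on the deposited scale, 2 with library number and 0 with the tubule level. Sost, which encodes the Wnt antagonist sclerostin, rose by 2.72 (limma adjusted p = 0.0230) and lost its call when any of 4 of the 8 rats was left out in turn.

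Axon guidance genes, which glomerular cells use for adhesion and capillary patterning, split. Of 47 members 6 rose and 5 fell, 12.8% and 10.6% against 6.35% and 1.86% of all genes. With 1 rat left out the rises ran from 1 without control rat 2 to 13 without control rat 1, and the falls from 1 to 7 without the same rats. With library number or the tubule level as a covariate none rose, and on the deposited scale 2 fell. The ephrin receptor Ephb3 rose by 1.70, the membrane semaphorin Sema7a by 1.16 and the Slit receptor Robo1 by 1.15. The ephrin receptor Epha4 fell by 1.12, the netrin Ntn4 by 0.89 and the semaphorin Sema6a by 0.87. Epha4 stood at 40.3, 44.4, 52.8 and 47.1 CPM in control and at 13.5, 23.6, 27.8 and 20.1 CPM in PAN, with every PAN rat lower (limma adjusted p = 0.00241).

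Genes better known from neurons were among the largest changes in each direction. Scg2 stood at 12.2, 1.47, 1.45 and 3.87 CPM in control and at 43.7, 46.9, 29.7 and 46.6 CPM in PAN (log2 change 3.24 ± 0.60, limma adjusted p = 0.00509), all PAN rats being above all controls. Prrt2, a synaptic membrane protein, had the largest called fall among genes that have a symbol, average 5 CPM or more and do not overlap. It stood at 51.4, 41.2, 44.6 and 35.6 CPM in control and at 6.57, 7.06, 8.91 and 4.86 CPM in PAN, a log2 change of -2.51 ± 0.33 (limma adjusted p = 0.000879). The synaptotagmin Syt7 fell by 1.21 and the neuronal pentraxin Nptx2 rose by 2.35. Of 26 members of the synaptic list 5 rose (19.2%) and 2 fell (7.69%). With 1 rat left out the rises ran from 3, without control rat 2 or PAN rat 1, to 9 without control rat 1, and there was 1 with library number and 0 with the tubule level as a covariate.

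Other large rises belonged to no list. Hjv, the co-receptor hemojuvelin that acts in iron regulation, went from 71.7, 12.8, 12.7 and 34.2 CPM in control to 272, 361, 375 and 337 CPM in PAN (log2 change 3.67 ± 0.55, limma adjusted p = 0.00185). Control rat 1 was the highest control and every PAN rat exceeded it. Ptprv, a receptor-type phosphatase, rose by 2.70, Pla2g7, which inactivates platelet-activating factor, by 2.63, and Ecrg4, a secreted peptide precursor, by 3.01. Abcg3l3, a member of the ABC transporter superfamily, rose by 3.28, and Tdrd5 by 2.59. The tachykinin gene Tac4 fell by 1.53, Gpm6a, a neuronal membrane glycoprotein, by 1.77 and Fam184b by 1.76.

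Few immune cell markers were called on the median-centred scale. Mrc1, the mannose receptor of resident macrophages, stood at 9.48, 11.1, 7.10 and 10.5 CPM in control and 57.2, 24.0, 13.7 and 20.8 CPM in PAN, a log2 change of 1.33 ± 0.33 (limma adjusted p = 0.0239). All PAN rats exceeded the controls, with PAN rat 1 the highest. Clec10a, a macrophage lectin, rose by 1.10, and 27 of 28 macrophage and monocyte genes had a log2 change above 0, with a median of 0.66. On the deposited scale 19 of the 28 were called higher, where 21.7% of all genes were, and with library number or the tubule level as a covariate none was, the median with the tubule level being -0.11. With 1 rat left out 0 to 4 were called higher. The defining markers Csf1r and Cd68 were not called (limma adjusted p = 0.124 and 0.135). The list's level was 3.79 to 4.10 in control rats and 5.55, 4.49, 4.16 and 4.05 in PAN rats, so PAN rat 4 lay within the control range. Of 30 chemokine, cytokine and NF-kB genes 3 rose, the TWEAK receptor Tnfrsf12a by 1.89, the chemokine Cxcl11 by 1.41 and the cytokine Il18 by 1.32. Cxcl11 and Il18 each kept the call in 2 of 8 fits with 1 rat left out. The list had 8 rises without PAN rat 4, 5 without control rat 1, 1 without any of the other 6 rats and 12 on the deposited scale. Of 16 lymphocyte genes 2 fell, among them the B cell receptor gene Cd79a by 0.91, with overlap between the groups.

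Of 21 complement genes 2 rose (9.52%, beside 6.35% of all genes), C1r, a protease of the classical pathway, by 1.49 and its inhibitor Serping1 by 1.27. Cd59, which protects cells from the membrane attack complex, fell by 0.47. The rises in this list ran from 1 to 5 with 1 rat left out (most without PAN rat 4) and were 9 on the deposited scale and 0 with library number or the tubule level as a covariate. On the deposited scale the fall of Cd59 had an adjusted p of 0.555 by limma. Among 24 immediate early genes Nr4a3 rose by 1.08 and Nr4a1 by 0.74, and Jun fell by 0.38, with an adjusted p of 0.731 by limma on the deposited scale. Of 32 lysosome and autophagy genes 5 rose, including the cathepsins Ctsk by 1.20 and Ctsz by 1.07. There were 2 without control rat 2 or 3, 6 without PAN rat 4, 14 on the deposited scale and 0 with library number or the tubule level as a covariate.

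**Figure D4:**
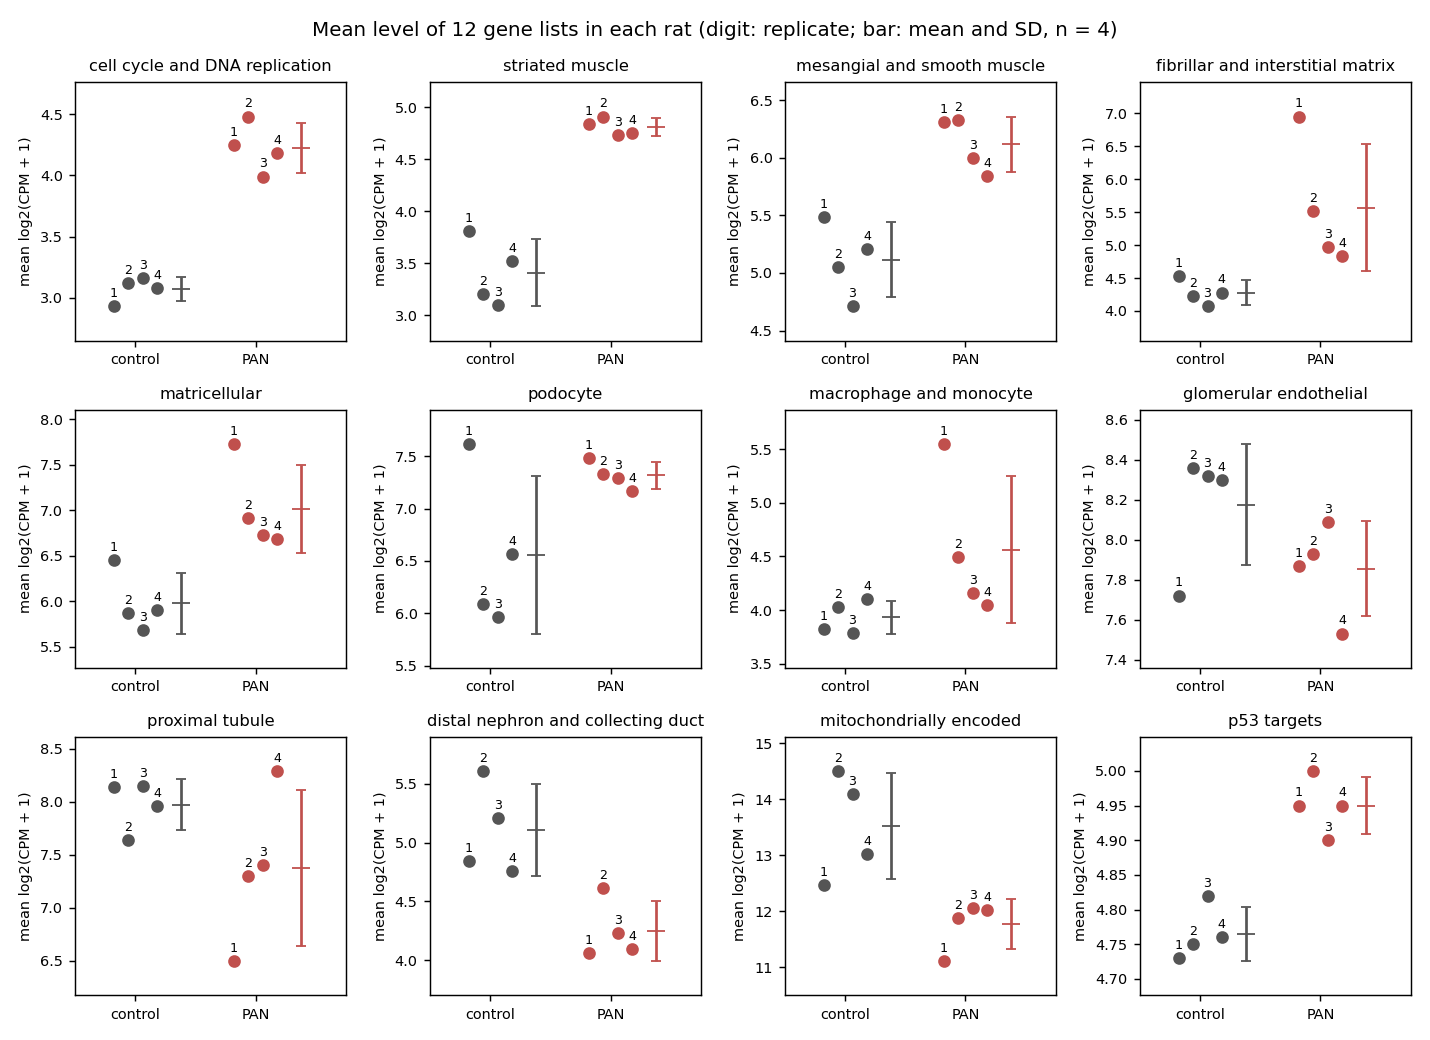
Each panel gives the mean log2(CPM + 1) over the members of one list in every rat, with the replicate digit and, beside the points, the group mean and SD (n = 4). Cell cycle and p53 levels lie close together within each group and apart between groups. Striated muscle levels are apart between groups and close together in PAN only, whereas podocyte, macrophage and proximal tubule levels overlap.

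Distal nephron and collecting duct genes had the largest share of called falls of any list. Of 30 analysed members 10 fell and none rose (33.3% against 1.86% of all genes), with a median log2 change of -0.88, or -0.57 on the deposited scale. Calb1, the calcium buffer of the distal tubule, stood at 87.9, 127, 115 and 61.9 CPM in control and at 9.68, 50.1, 31.9 and 23.6 CPM in PAN. Every PAN rat was below every control, with a log2 change of -1.89 ± 0.53 (limma adjusted p = 0.0429). Atp6v1b1, the proton pump subunit of acid-secreting intercalated cells, stood at 43.7, 79.7, 60.6 and 43.2 CPM in control and at 12.1, 29.1, 25.6 and 17.5 CPM in PAN (log2 change -1.41 ± 0.34, limma adjusted p = 0.0190). It did not overlap. The pump subunits Atp6v0d2 and Atp6v1g3 fell by 1.21 and 1.19, the potassium channels Kcnj1 and Kcnj10 by 1.33 and 1.30, Umod, uromodulin of the thick ascending limb, by 1.18, the calcium-sensing receptor Casr by 1.55 and the chloride channel subunit Bsnd by 1.36.

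The sodium chloride transporters of the same segments were not called, with Slc12a3 at a log2 change of -1.47 (limma adjusted p = 0.0533) and Slc12a1 at -0.78 (limma adjusted p = 0.0831). The list's level was 4.84, 5.61, 5.21 and 4.76 in control rats and 4.06, 4.61, 4.23 and 4.09 in PAN rats. More or fewer tubule fragments among the sieved glomeruli and a change within those cells cannot be told apart. No distal nephron gene fell by the test without control rat 2, without control rat 3 or with library number as a covariate, and 1 fell without PAN rat 1. None fell with the tubule level as a covariate either, but that level averages these same genes, so the loss there decides nothing. Of 33 proximal tubule genes none was called and 30 had a log2 change under 0, and without PAN rat 4 the test called 8 of them lower, where 5.92% of all genes were. Their level was 8.14, 7.64, 8.15 and 7.96 in control rats and 6.50, 7.30, 7.40 and 8.29 in PAN rats. PAN rat 1 had the lowest and PAN rat 4 the highest level of all 8 rats, so the groups overlapped. The endocytic receptor Lrp2 and the phosphate transporter Slc34a1 had log2 changes of -0.53 and -0.60.

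Beyond the muscle enzymes Pygm and Cpt1b, genes of energy metabolism gave few calls. All 13 mitochondrially encoded genes lay without overlap below the controls (6.12% of all genes did), and the median log2 change was -1.77, and Mt-nd4l was the 1 member called (limma adjusted p = 0.0444). That median was -0.54 with quantile normalization and -1.0 without control rats 2 and 3, and the called members ran from 0 to 8 with 1 rat left out, 8 being without control rat 1. Mt-co1, a subunit of cytochrome oxidase, stood at 43600, 167000, 124000 and 61300 CPM in control and at 15900, 28600, 31400 and 29700 CPM in PAN. The control rats differed from each other by more than the gap between the lowest control and the PAN rats, and Mt-co1 was not called (limma adjusted p = 0.181). The 80 nuclear respiratory chain genes had a median of -0.16 here and 0.16 on the deposited scale, so their direction rests on the scaling. The 70 ribosomal protein genes had a median of 0.08. Of 30 glycolysis and glycogen genes 3 rose (10.0%) and 2 fell (6.67%). With Pygm, Pfkfb3, which sets the rate of glycolysis, rose by 0.95 and Gyg1, the glycogen primer, by 0.69, while Ldhb, the heart-type lactate dehydrogenase, fell by 1.0.

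The counts depended on which libraries and covariates entered. With library number as a covariate 308 genes were higher and 45 lower, with the tubule level as a covariate 104 and 20, and with the podocyte level as a covariate 524 and 103. The cell cycle list kept a high share under each: 41, 20 and 40 members rose. The mesangial list had 6, 1 and 8 rises, the interstitial matrix list 5, 0 and 8, and the striated muscle list 5, 3 and 6. These lists had 47, 18, 14 and 9 rises on the deposited scale. The integrin and focal adhesion list had 11 rises on the deposited scale, 1 with library number and 0 with the tubule level, the intermediate filament list 7, 4 and 1, the TGF-beta list 11, 2 and 1, and the angiogenic list 6, 1 and 1. With 1 rat left out, the cell cycle list had 24 to 38 rises (fewest without PAN rat 2), the mesangial list 8 to 17 (fewest without control rat 3), the striated muscle list 6 to 9 and the interstitial matrix list 9 to 13. The actin list had 7 to 16 rises and the protease list 5 to 12 (both fewest without control rat 3), and the intermediate filament list 3 to 7 (fewest without control rat 2). Of the 126 called genes that were followed under every setting, 27 stayed called in the same direction under all the planned settings that tested them, among them Synpo2l, Pygm, Ldb3, Adamts14, Des, Cdkn1a, Cdk1, Top2a, Vegfd, Plvap and Prrt2. In the fits with 1 rat left out, 71 of the 126 kept the call in all that tested them. Of the genes named here, Calb1, Col4a1, Cd59 and Ddr2 kept it in 1 of 8 fits. Ddn, Krt7, Clec10a, Cd79a, Tgfbr2, Cxcl11, Il18, Nes, Itgb5, Itga3, Mt-nd4l and Ldhb kept it in 2, and Hs3st6, Kcnj1, Kcnj10, Serping1, Actn1, Ephb3 and Robo1 in 3. The immediate early list had 1 to 4 rises (most without control rat 1) and the angiogenic list 3 to 5. The lymphocyte list had 2 falls without control rat 4 or PAN rat 3 and 0 without any other rat, and 9 fatty acid oxidation genes were lower without PAN rat 4. Falls in the glycolysis list ran from 0 to 3, again most without PAN rat 4. When control rats 2 and 3, both above 30% mitochondrial reads, were left out together, 49 genes were higher and 6 lower, with 4 cell cycle, 3 striated muscle and 2 mesangial rises. That choice was made after seeing the data. The control group then has 2 rats, and 0.371% of all genes were higher and 0.0454% lower. Another choice made after seeing the data kept the libraries numbered 15 or below, which sets PAN rat 4 alone against the 4 controls and assumes that it varies like the rats of the other groups. Then 35 genes were higher and 3 lower (0.265% and 0.0227%), with 9 cell cycle and 3 striated muscle rises, and 15 of the 126 followed genes stayed called.

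PAN rat 1 was the highest PAN rat in 441 of the 840 called rises and PAN rat 2 in 300, and control rat 1 was the highest control in 503.

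**Figure D5:**
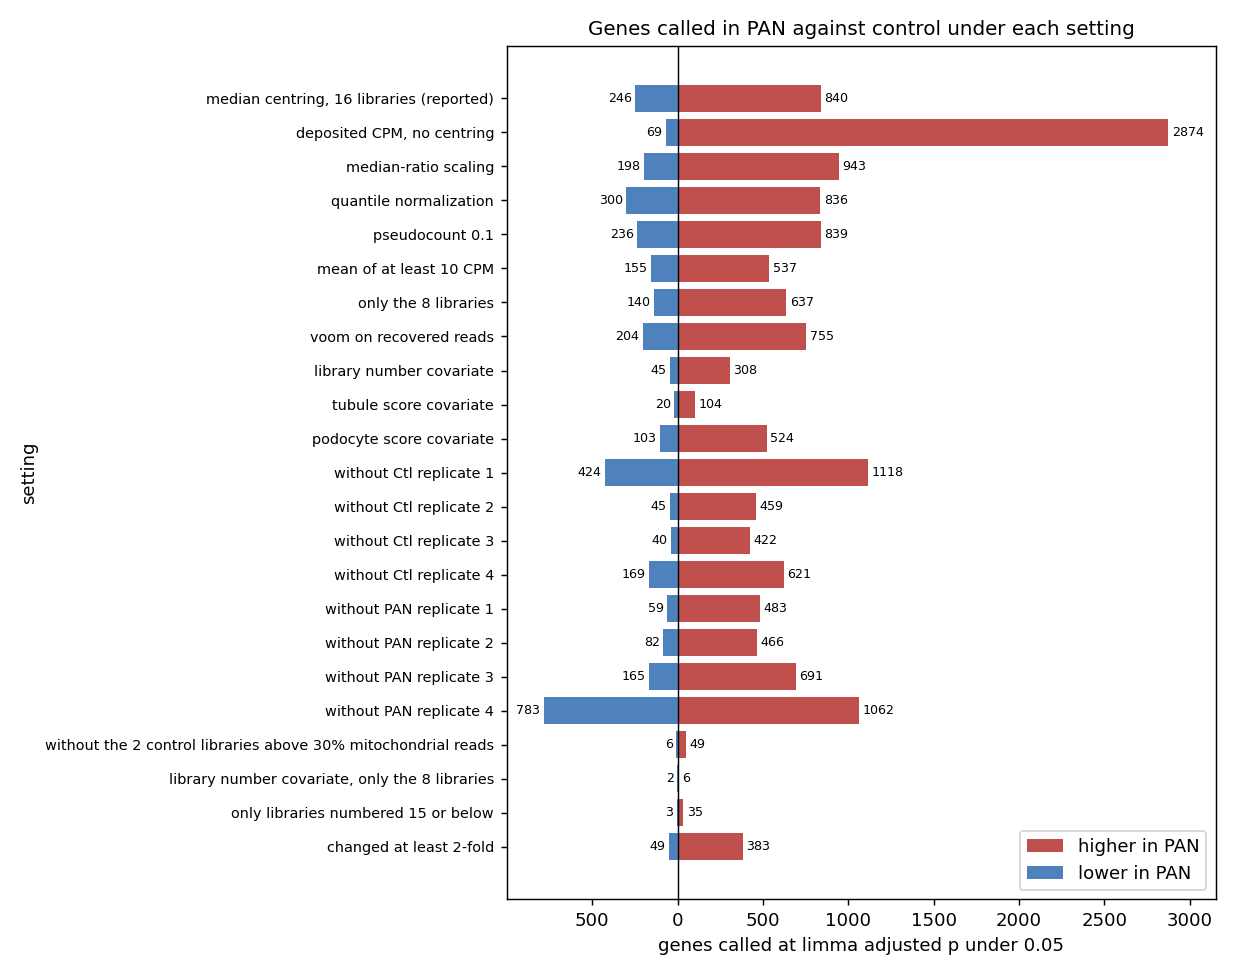
Bars give the number of genes called higher (right) and lower (left) in PAN by limma under each setting, with the counts printed at the bar ends. The deposited scale gives 2874 rises, the 3 settings added after seeing the data give the fewest calls, and leaving out PAN rat 4 gives the most falls at 783.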

How the data were processed

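The table was deposited as log2 CPM (CPM is the share of a library's reads, on a fixed total) for 13222 genes by Ensembl identifier in 16 libraries; HISAT2, featureCounts of Subread, limma and the Rnor_6.0 build are named per the submitters' processing notes. In the deposited log2 values 0.5 read was added to each count and 1 to each total, and undoing this gave whole reads (within 0.05) for 100% of values. Each gene had been kept by the authors on a minimum level, so genes of low abundance are not analysed here. Values were brought to CPM, each library was multiplied by one factor that equalises library medians, and 1 CPM was added before log2. limma 3.58.1 (R 4.3.3, trend) fitted 4 group means to all 16 libraries without covariates. Two-sided p-values were adjusted over 13222 genes by the Benjamini-Hochberg method, and adjusted p under 0.05 is a call. Reads were simulated from the mean levels of these genes with 200 of 13222 genes changed. The spread was set to the same value for every gene and was not taken from these data. Of the 2-fold changes 81.5% were recovered and 9 unchanged genes were called. For 4-fold changes these were 100% and 5. The shares do not describe genes that vary more between rats.

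The plan had allowed for a count table first; because the table holds log2 values, the limma branch was used, with voom on the recovered reads as an alternative. A level of 3 reads corresponds to 0.139 to 0.235 CPM, so values near that level rest on few reads; the reads carry no molecular identifiers, and this floor covers counting error only. The 42 gene lists and the comparison were chosen with earlier results of these data known. Named genes were taken from a rule: the 20 largest called rises and falls with at least 5 CPM and no overlap, up to 5 called members of each list each way, and the defining markers of each cell type. Cryab, Ryr1, Eno3, Mcm3, Mcm4, Mcm5 and Cdc6 were chosen after their values were seen. Replicate numbers follow sample order and pair nothing. Alternatives were the deposited scale, median-ratio scaling, quantile normalization, a pseudocount of 0.1, a mean of at least 10 CPM, the 8 libraries alone, voom, library number, tubule or podocyte level as covariates, a 2-fold minimum and leaving out each rat. The library number covariate had only the values below 25 and 25 or above. It marked PAN rats 1 to 3, no control, library 27 of the GQ-16 group and library 34 of the pioglitazone group. Some genes that this rule takes in are not reported here.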

Additional observations from a re-analysis of the deposited data

Results flagged for a closer look

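In 19 of 380 groups of 4 rats examined, 1 rat stood apart from its group by a gap above Dixon's 95% limit. Chance flags about 1 in 20 groups, 19 here, so the number gives no sign of more such rats than chance alone. The values below are on the log2(CPM + 1) scale.

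Control rat 1 held 9 of them. Its endothelial level was 7.72 against 8.30 to 8.36 in the other controls, and its immediate early level was 5.06 against 4.96 to 4.97. It was the lowest control for the endothelial genes Ehd3 (9.78) and Emcn (9.16), for the receptor Tgfbr2 (9.57) and for Csf1r (5.27). It was the highest control for Trpc6 (1.99), Actn1 (6.98) and Sost (4.62).

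Control rat 3 was the lowest control for Vegfd (3.39) and Ror2 (2.84). PAN rat 1 had the highest complement level at 5.64 against 4.16 to 4.33 in the other PAN rats, the highest Smoc2 (4.04) and Pdk4 (5.01) and the lowest Mt-nd4l (8.86) and Mt-co1 (13.96). PAN rat 4 had the highest fatty acid oxidation level, 6.17 against 5.63 to 5.66. PAN rat 2 was the highest PAN rat for Slc12a1 (6.93), and PAN rat 3 the lowest for Scg2 (4.94).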

How the results depend on the processing

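Counts of genes called higher and lower were 840 and 246 (1086 in either direction) as reported. They were 2874 and 69 (2943) on the deposited scale, 943 and 198 with median-ratio scaling, 836 and 300 with quantile normalization, 839 and 236 with a pseudocount of 0.1, 755 and 204 with voom on recovered reads, 537 and 155 (692) with a mean of at least 10 CPM, 637 and 140 with the 8 libraries alone and 383 and 49 (432) with at least 2-fold. They were 308 and 45 (353) with library number, 104 and 20 (124) with the tubule level and 524 and 103 (627) with the podocyte level as covariate. Leaving out 1 rat gave 422 to 1118 higher, 40 to 783 lower and 462 to 1845 in either direction. The fewest came without control rat 3, the most rises without control rat 1 and the most falls without PAN rat 4. Chosen after seeing the data, leaving out control rats 2 and 3 gave 49 and 6 (55). Only libraries numbered 15 or below, with PAN rat 4 alone in its group, gave 35 and 3 (38). Also chosen after the data were seen was library number as covariate with the 8 libraries alone. There the mark of 25 or above takes PAN rats 1 to 3 and no control, so the PAN change rests on PAN rat 4 alone. It gives the same changes as libraries numbered 15 or below and is not a separate check. The cause of these shifts was not tested, beyond the smaller number of libraries or genes where a setting has fewer.

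No followed gene that was called changed direction. Uncalled genes that did included Ehd3 (0.09 on the deposited scale, 0.05 with library number, 0.14 with the podocyte level), Cdh5 (0.02 with the podocyte level), Lrp2 (0.33 with the tubule level) Slc34a1 (0.53 with the tubule level, 0.02 with library number), Casq1 (0.22 on the deposited scale, 0.20 with library number, 0.33 with the tubule level, -0.13 to 0.05 with 1 rat left out) and Pdgfra (0.16, 0.20, 0.08 and -0.44 to 0.07 in the same settings). Lrp2 and Slc34a1 are themselves part of the tubule level, so their signs under that covariate decide nothing. With library number and the 8 libraries alone, and with libraries numbered 15 or below, Lrp2 was at 0.44, Slc34a1 at 0.38, Casq1 at 0.20 and Pdgfra at 0.13. With 1 rat left out, the difference in mitochondrial share ran from -21.2 to -12.7 points, in the scaling factor from -0.3 to -0.166 and in total reads from -777000 to 668000. No paired analysis was possible because the labels carry no replicate numbers and those used here only name rats.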
